A study of Rattus norvegicus with 12 samples.

Results

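Enzymes that oxidize, reduce and conjugate small lipids, steroids, retinoids and foreign compounds were examined in the rat L5 dorsal root ganglion (DRG), the cluster of sensory neuron cell bodies and their glia beside the spinal cord. They were chosen by name, as probesets with 1 gene symbol that belongs to the cytochrome P450 (Cyp), aldehyde dehydrogenase (Aldh), alcohol dehydrogenase (Adh), aldo-keto reductase (Akr), flavin monooxygenase (Fmo), epoxide hydrolase (Ephx), carboxylesterase (Ces), glucuronosyltransferase (Ugt) or sulfotransferase (Sult) family, with the cholesterol synthesis enzyme Cyp51 left out. This gave 83 of the 8260 core probesets, for 83 genes in 9 families. The locally inflamed DRG (LID) group held 6 arrays, each from the single L5 DRG of an adult male Sprague Dawley rat on post-operative day 3, after 10 µl of the yeast cell wall preparation zymosan (at 2 mg/ml, with incomplete Freund's adjuvant) had been placed onto that ganglion. The sham group held 6 arrays from rats of the same strain, sex and day with the same surgical exposure and no zymosan or adjuvant. The comparison asks what inflammation of the ganglion, without cutting an axon, does to gene expression, and it cannot separate zymosan from its adjuvant because the sham rats received neither.

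In the usual account of drug metabolism, P450s and flavin monooxygenases add an oxygen atom to a substrate, dehydrogenases and aldo-keto reductases interconvert alcohols, aldehydes and acids, and transferases then attach sulfate or glucuronic acid so that the product can be excreted. Many of these enzymes are abundant in liver, but others work on the body's own signals. The Aldh1a enzymes make retinoic acid from retinaldehyde, Cyp26 enzymes break retinoic acid down, and Ugt8 makes the galactolipids of myelin.

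Each value is a log2 value relative to the median of that probeset over the 12 arrays, so it gives the distance of an array from the middle of the series for that gene and holds no level of expression. A difference of means, LID minus sham, is a log2 fold change. It was tested for every probeset with limma, and a gene is said to rise or fall where p after Benjamini-Hochberg adjustment over all 8260 probesets was under 0.05. From these values, levels could not be compared between genes and no filter on low expression could be made. The authors' own list of observed genes was not used as a filter, so all 83 members were tested.

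Of the 83 enzymes, 11 passed the test (13.3%), against 19.4% of all probesets. Only 1 rose, Cyp1b1, where 7.66% of all probesets rose. The other 10 fell, against 11.7% of all probesets. The 6 LID and 6 sham values did not overlap for 3 enzymes, Sult1a1, Aldh1a2 and Fmo1, against 10.0% of all probesets. Most enzymes changed little: the log2 fold change was within 0.1 of 0 for 58 of 83, and the median absolute change was 0.050, against 0.088 over all probesets. The median log2 fold change was -0.04 over the enzymes and -0.02 over all probesets. At an unadjusted p under 0.05, 17 of 83 enzymes passed, against 2472 of the 8260 probesets. The whole ganglion was measured, so fewer cells of a type and less RNA per cell cannot be told apart in any of these decreases.

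**Figure D1:**
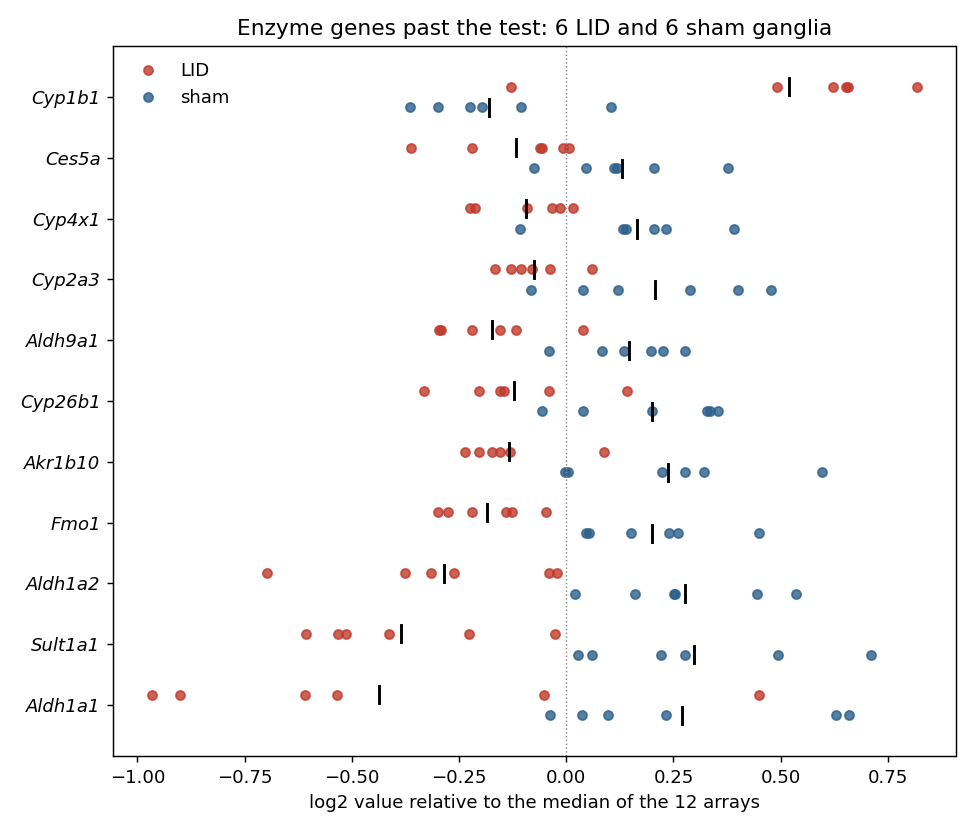
Values of the 11 enzymes that passed the test, in log2 units relative to the median of the 12 arrays (horizontal axis), with 1 point per array, LID points above sham points in each row, and a black bar at each group's mean. Cyp1b1 lies to the right in 5 of the 6 LID arrays, and for Sult1a1, Aldh1a2 and Fmo1 every LID point lies left of every sham point.

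Cyp1b1, a P450 that oxidizes estradiol and polycyclic aromatic compounds and that the aryl hydrocarbon receptor is known to induce, was the only enzyme that rose. Its lowest, median and highest values were -0.13, 0.64 and 0.82 in the LID arrays and -0.36, -0.21 and 0.11 in the sham arrays. In 5 of the 6 LID arrays it stood at 0.49 or more, above every sham array, and LID replicate 6 alone lay within the sham range. The fold change was 1.62 (95% confidence interval 1.32 to 1.99, n = 6 arrays per group, adjusted p = 0.00326 from limma), and without LID replicate 6 the log2 fold change was 0.83 (adjusted p = 8.4e-05). The other members of its subfamily, Cyp1a1 and the liver enzyme Cyp1a2, stayed near 0, with log2 fold changes of -0.00 and -0.03, and neither passed. LID replicate 6 also had the lowest mean, among the LID arrays, of the marker genes of 5 kinds of cells. The mean was -0.20 for fibroblasts, meninges and perineurium (others -0.11 to 0.33) and -0.04 for endothelium and pericytes (others 0.09 to 0.24). For Schwann cells it was -0.21 (others -0.06 to 0.19). The gap to the next array was narrow for macrophages (0.21, others 0.23 to 0.97) and satellite glia (-0.28, others -0.27 to 0.00). LID replicate 6 had the highest mean of the sensory neuron markers (0.09, others up to 0.05). The part of these cells in the rise of Cyp1b1 was not tested.

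The stretch of DNA around the start of Cyp1b1 is shown because the core of the xenobiotic response element, to which the aryl hydrocarbon receptor is known to bind, occurs in it. Its letters are GCGTG, searched on both strands, and capitals mark them in the RefSeq promoter below (assembly GRCr8, chr6:21094315-21094614, + strand, 250 bases before to 50 after the start).
Cyp1b1: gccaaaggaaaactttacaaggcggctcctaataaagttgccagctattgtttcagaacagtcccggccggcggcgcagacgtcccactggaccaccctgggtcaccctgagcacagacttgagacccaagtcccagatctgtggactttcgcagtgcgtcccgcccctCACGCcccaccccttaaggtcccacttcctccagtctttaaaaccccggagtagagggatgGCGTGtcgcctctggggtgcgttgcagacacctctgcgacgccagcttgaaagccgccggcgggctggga
The core occurred 81 and 20 bases before the start. Of 27457 RefSeq promoters of the same length, 31.1% held it, as did 21 of the 70 enzymes that have a promoter there. Among the 11 enzymes that passed the test 6 held it (Akr1b10, Aldh1a2, Aldh9a1, Cyp1b1, Cyp26b1 and Cyp4x1), 5 of which fell, and 2 of 27 liver-typical enzymes did. A match of so few letters is a description of the window and not a binding site.

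Ahr, the aryl hydrocarbon receptor itself, was measured on the same arrays. Its lowest, median and highest values were -0.00, 0.08 and 0.19 in the LID arrays and -0.18, -0.11 and 0.00 in the sham arrays, and the groups overlapped only near 0. It rose 1.14-fold (1.06 to 1.22, adjusted p = 0.017). Its dimer partner Arnt had a log2 fold change of 0.12 (adjusted p = 0.11) and its repressor Ahrr one of -0.05 (adjusted p = 0.752), and neither passed the test.

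Among the enzymes of retinoic acid, Aldh1a1, Aldh1a2 and Cyp26b1 fell. Aldh1a2, which makes most of the retinoic acid of the embryo, had lowest, median and highest values of -0.70, -0.29 and -0.02 in the LID arrays and 0.02, 0.25 and 0.54 in the sham arrays. All 6 LID arrays lay below all 6 sham arrays, with LID replicates 2 and 3 and sham replicate 4 close to the border. The log2 fold change was -0.56 (standard error, SE, 0.12, 6 arrays per group, adjusted p = 0.00426). Cyp26b1, which hydroxylates retinoic acid for clearance, ran over -0.33, -0.15 and 0.14 in the LID arrays and -0.06, 0.26 and 0.35 in the sham arrays. The groups overlapped through LID replicate 2 on the high side and sham replicates 4 and 6 on the low side. It fell by 0.32 (SE 0.09, adjusted p = 0.0227), with an adjusted p of 0.0523 without LID replicate 3 and 0.0507 without sham replicate 5.

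Aldh1a1, a cytosolic enzyme that oxidizes retinaldehyde and other aldehydes, had the largest fall in the mean of all 83 enzymes and also the widest spread among the LID arrays. Its lowest, median and highest values were -0.97, -0.57 and 0.45 in the LID arrays and -0.04, 0.16 and 0.66 in the sham arrays. LID replicates 1, 4, 5 and 6 lay at -0.53 or below, under every sham array, whereas LID replicate 2 (-0.05) lay just under the lowest sham array and LID replicate 3 (0.45) lay within the sham range. The log2 fold change was -0.71 (SE 0.22, adjusted p = 0.0415). The call was lost when LID replicate 1, 4, 5 or 6 or sham replicate 1, 4, 5 or 6 was left out (adjusted p from 0.059 to 0.0895). LID replicates 3 and 2 also had the highest means of the fibroblast, meninges and perineurium markers (0.33 and 0.31), of the T and NK cell markers (0.50 and 0.49) and of the macrophage markers (0.76 and 0.97) among the LID arrays. Of the T and NK cell markers, only Nkg7, Klrk1 and Prf1 passed the test. LID replicate 3 had the highest mean of the Schwann cell markers (0.19) and LID replicate 2 that of the satellite glia markers (0.00), and the part of these cells in the spread of Aldh1a1 was not tested. The related Aldh1a3 had values of -0.61, -0.15 and 0.19 in the LID arrays and -0.05, 0.03 and 0.42 in the sham arrays, with a log2 fold change of -0.24 that did not pass the test (adjusted p = 0.263). Cyp26a1, the second retinoic acid hydroxylase measured, stayed near 0 (log2 fold change 0.02) and did not pass.

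The promoters of the 3 retinoid enzymes that fell are shown because these genes moved in 1 direction, with CCAAT, the letters of the CCAAT box, in capitals for Aldh1a1, and the GCGTG core in capitals for Aldh1a2 and Cyp26b1. Both were searched on either strand of the 250 bases before and 50 after the RefSeq start in GRCr8, at chr1:227537370-227537669 (+ strand) for Aldh1a1, chr8:80758391-80758690 (+ strand) for Aldh1a2 and chr4:118616127-118616426 (- strand) for Cyp26b1.
Aldh1a1: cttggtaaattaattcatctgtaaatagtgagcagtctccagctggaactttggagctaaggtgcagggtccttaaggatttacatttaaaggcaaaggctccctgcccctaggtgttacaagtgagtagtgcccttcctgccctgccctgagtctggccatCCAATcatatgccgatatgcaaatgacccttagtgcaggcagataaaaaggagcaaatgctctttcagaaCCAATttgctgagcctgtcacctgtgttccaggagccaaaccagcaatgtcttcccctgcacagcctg
Aldh1a2: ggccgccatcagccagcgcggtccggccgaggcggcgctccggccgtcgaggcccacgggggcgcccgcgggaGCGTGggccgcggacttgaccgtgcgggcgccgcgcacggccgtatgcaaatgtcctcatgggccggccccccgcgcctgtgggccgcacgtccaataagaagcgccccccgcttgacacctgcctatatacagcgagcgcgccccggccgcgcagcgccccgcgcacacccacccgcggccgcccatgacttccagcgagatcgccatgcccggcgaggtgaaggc
Cyp26b1: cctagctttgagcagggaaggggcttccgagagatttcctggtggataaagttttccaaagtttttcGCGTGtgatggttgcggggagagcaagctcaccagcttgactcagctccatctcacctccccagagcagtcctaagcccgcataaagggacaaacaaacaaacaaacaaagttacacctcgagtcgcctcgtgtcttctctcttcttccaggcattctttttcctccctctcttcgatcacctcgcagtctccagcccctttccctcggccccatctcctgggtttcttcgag
The CCAAT box lay 88 and 18 bases before the Aldh1a1 start and, in lower case, 85 bases before that of Aldh1a2. Matches of different motifs did not overlap here. The GCGTG core lay 177 bases before the Aldh1a2 start and 183 bases before that of Cyp26b1. No motif searched occurred in all 3 windows. The CCAAT box occurred in 37.7% of all 27457 promoters, in 45.7% of the 70 enzyme promoters and in 6 of the 11 promoters of enzymes that passed the test. The nuclear receptor half-site AGGTCA, to which retinoic acid receptors are known to bind, occurred in 15.7% of all promoters and 25.7% of the enzyme promoters, but in none of these 3 windows.

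Other genes that handle retinoids went both ways. Of 23 genes listed, 13 were measured, the enzymes above included, of which 4 rose and 5 fell, leaving 4 that did not pass, where 7.66% of all probesets rose and 11.7% fell. The median log2 fold change of the 13 was -0.02. Rdh10, which oxidizes retinol to retinaldehyde, had values of -0.18, 0.39 and 0.65 in the LID arrays and -0.54, -0.36 and 0.19 in the sham arrays, and rose 1.56-fold (1.24 to 1.95, adjusted p = 0.0097). Lrat, which stores retinol as its ester, rose 1.49-fold (1.22 to 1.82, adjusted p = 0.00959), and Crabp2, which carries retinoic acid to its nuclear receptor, rose 1.46-fold (1.27 to 1.68, adjusted p = 0.00126). For these 3 genes most LID arrays lay above most sham arrays, with a narrow overlap for Lrat and Crabp2. Dhrs9, another retinol dehydrogenase, rose 1.41-fold (1.11 to 1.79, adjusted p = 0.0455). Its call was kept without LID replicate 3 or 6 and was lost without any other single array (adjusted p from 0.052 to 0.102). Rbp2, a retinol binding protein best known from the intestine, fell by 0.48 in log2 units (SE 0.12, adjusted p = 0.0157), and the reductase Rdh11 fell by 0.15 (SE 0.04, adjusted p = 0.0085) with no overlap between the groups. The receptor Rara and the carotene oxygenase Bco1 had log2 fold changes of 0.00 and -0.02.

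**Figure D2:**
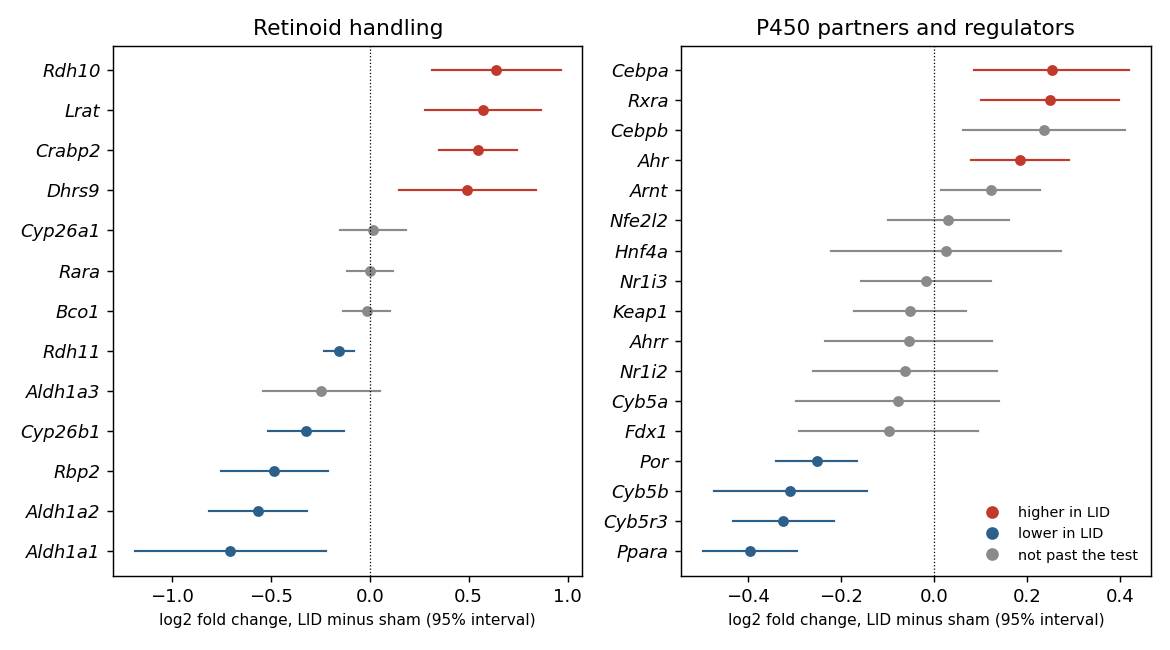
Log2 fold change, LID minus sham, with 95% confidence intervals, for the measured genes of the retinoid list and of the list of P450 partners and regulators. Rdh10, Lrat, Crabp2 and Dhrs9 lie to the right of 0 and Aldh1a1, Aldh1a2, Cyp26b1, Rbp2 and Rdh11 to the left, and among the partners Ppara, Cyb5r3, Cyb5b and Por lie to the left.

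Outside the retinoid enzymes, Aldh9a1 was the only other dehydrogenase that fell. It oxidizes an aldehyde on the way to carnitine and is also known to make GABA from putrescine. Its values were -0.30, -0.19 and 0.04 in the LID arrays and -0.04, 0.17 and 0.28 in the sham arrays, with overlap only through LID replicate 3 and sham replicate 6. It fell by 0.32 in log2 units (SE 0.07, adjusted p = 0.00548), and the call held with every single array left out. Aldh2, the mitochondrial enzyme that clears acetaldehyde and lipid aldehydes, was nearly flat. Its values ran from -0.10 to 0.02 in the LID arrays and from -0.07 to 0.08 in the sham arrays, and the 95% interval of the log2 fold change was -0.09 to 0.09. Of the 10 Aldh genes, 3 fell and 7 did not pass, where 11.7% of all probesets fell. The family median was -0.05. The 4 Adh genes, among them the liver enzyme Adh1c (-0.05, adjusted p = 0.792), lay between -0.05 and 0.04. None of them passed in limma or by ordinary least squares, and 0 of 4 did at an unadjusted p under 0.05.

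Of the 2 conjugating families, the sulfotransferases held the single call. Sult1a1, which sulfates phenols and catecholamines, had lowest, median and highest values of -0.61, -0.46 and -0.03 in the LID arrays and 0.03, 0.25 and 0.71 in the sham arrays. Every LID array lay below every sham array, with LID replicate 3 and sham replicates 1 and 2 nearest to the border. It fell by 0.68 in log2 units (SE 0.13, adjusted p = 0.0023), and the call held under each alternative tried. All 4 Sult genes had a negative log2 fold change, as did 58 of the 83 enzymes and 4788 of the 8260 probesets. Sult1b1 (-0.11), Sult1d1 (-0.11) and Sult1c3 (-0.03) did not pass the test.
None of the 6 glucuronosyltransferases passed in limma or by ordinary least squares, and 1 of them did at an unadjusted p under 0.05. Ugt8 had values of -0.26, -0.17 and 0.36 in the LID arrays and -0.07, 0.05 and 0.37 in the sham arrays. Of the LID arrays, 4 lay below 0, LID replicate 2 lay near 0, and LID replicate 3 was the highest, as it was for the mean of the Schwann cell markers. The log2 fold change was -0.17 (95% interval -0.40 to 0.07, adjusted p = 0.349). Of 16 genes for cofactors and other conjugation, 6 were measured and 1 rose, Ugdh, which makes the UDP-glucuronic acid that glucuronosyltransferases use (1.26-fold, 1.13 to 1.41, adjusted p = 0.00605). None of the 6 fell, and over all probesets 7.66% rose and 11.7% fell.

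All 3 flavin monooxygenases, which oxygenate the nitrogen and sulfur atoms of drugs, had a negative log2 fold change. So did 58 of the 83 enzymes and 4788 of the 8260 probesets. Fmo1 had values of -0.30, -0.18 and -0.05 in the LID arrays and 0.05, 0.20 and 0.45 in the sham arrays. The groups did not overlap, and LID replicate 5 and sham replicates 1 and 2 lay nearest to the border. It fell by 0.38 in log2 units (SE 0.07, adjusted p = 0.00238). Its neighbour Fmo2, the main form in lung of many mammals, had values of -0.59, -0.16 and 0.18 in the LID arrays and -0.13, 0.16 and 0.93 in the sham arrays, and the groups overlapped widely. Its log2 fold change of -0.49 did not pass the test (95% interval -0.88 to -0.10, adjusted p = 0.0796). Fmo4, the third gene of this cluster, was at -0.15 (adjusted p = 0.376).

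Beyond Cyp1b1 and Cyp26b1, 2 of the 38 P450s passed the test, and both fell. With these, 10.5% of the P450s passed, against 19.4% of all probesets. Cyp4x1, a P450 first described from brain, had values of -0.22, -0.06 and 0.02 in the LID arrays and -0.11, 0.17 and 0.39 in the sham arrays. Sham replicate 2 lay below 4 of the LID arrays, and the other sham arrays lay above all of them. It fell by 0.26 in log2 units (SE 0.08, adjusted p = 0.0288), but the call was lost without LID replicate 2, 3 or 5 or sham replicate 3, 4, 5 or 6 (adjusted p from 0.0506 to 0.0683). Cyp2a3, known from rat lung and nasal mucosa, had values of -0.17, -0.09 and 0.06 in the LID arrays and -0.08, 0.20 and 0.48 in the sham arrays. Sham replicates 2 and 4 were the highest, and sham replicates 1 and 5 lay within the LID range. Its log2 fold change was -0.28 (SE 0.09, adjusted p = 0.0378), and the call was lost without LID replicate 1, 2, 3, 4 or 6 or sham replicate 2, 3, 4 or 6 (adjusted p from 0.0521 to 0.0885). Other P450s of the Cyp2 family lie beside it in the genome, and cross-hybridization between them was not tested. The 4 measured neighbours within 500 kb in the GRCr8 gene order, Cyp2a1, Cyp2b21, Cyp2f4 and Cyp2t1, had log2 fold changes from -0.09 to 0.02, and none passed.

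Several P450s of lipid and sterol signalling did not pass the test. Cyp2j4, of the subfamily that makes epoxides from arachidonic acid, had values of -0.30, -0.09 and 0.26 in the LID arrays and -0.12, 0.25 and 0.62 in the sham arrays. LID replicate 4 stood apart from the other LID arrays, which lay below 0, and sham replicate 1 was the only sham array below 0. The log2 fold change was -0.33 (adjusted p = 0.079), and it passed without LID replicate 4 (adjusted p = 0.0326) or without sham replicate 1 (0.0266). Cyp2d4, a rat P450 known from brain, was at -0.20 (adjusted p = 0.0921). Cyp4f1, of the subfamily that hydroxylates leukotriene B4, was at -0.05 (adjusted p = 0.745), and Cyp27a1, which hydroxylates the side chain of cholesterol, was at 0.06 (adjusted p = 0.577). The 2 epoxide hydrolases, which open such epoxides, did not pass in limma or by ordinary least squares (0 at an unadjusted p under 0.05). Ephx2, the soluble form, was at 0.04 (adjusted p = 0.767), and Ephx1, the microsomal form, was at -0.14 (adjusted p = 0.461), with sham replicate 6 the highest array at 0.61.

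Akr1b10 was the only aldo-keto reductase of 13 that fell in limma (7.69%, against 11.7% of all probesets). By ordinary least squares 2 of the 13 passed. These enzymes reduce aldehydes and ketones, and in human AKR1B10 also reduces retinaldehyde. Its values were -0.24, -0.16 and 0.09 in the LID arrays and -0.00, 0.25 and 0.60 in the sham arrays. Apart from LID replicate 5, the LID arrays lay below all sham arrays, and sham replicates 1 and 2 lay near 0, below the other sham arrays. It fell by 0.37 in log2 units (SE 0.10, adjusted p = 0.0149). Its neighbours did not pass the test: aldose reductase (Akr1b1), which makes sorbitol from glucose, and Akr1b7 were both at -0.02, and Akr1b8 was at 0.16 (adjusted p = 0.522). Akr1b8 and Akr1b10 are close in sequence, and how their probes share signal was not tested. Akr1a1, the general aldehyde reductase, was at 0.07 (adjusted p = 0.366).
Of 3 carboxylesterases, Ces5a fell by 0.25 in log2 units (SE 0.08, adjusted p = 0.0487). Its values were -0.36, -0.06 and 0.01 in the LID arrays and -0.08, 0.12 and 0.38 in the sham arrays, and the groups overlapped through sham replicate 1. This was the weakest of the 11 calls, and it was kept only without LID replicate 4 or sham replicate 1 and was lost without any other single array (adjusted p from 0.0518 to 0.105).

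By family, the median log2 fold change was -0.38 over 3 Fmo genes, -0.11 over 4 Sult, -0.06 over 13 Akr and over 3 Ces, -0.05 over 10 Aldh, 6 Ugt and 2 Ephx genes, and -0.01 over 38 Cyp and 4 Adh genes. The Cyp family had the widest range, from -0.33 for Cyp2j4 to 0.70 for Cyp1b1, although 31 of its 38 genes lay within 0.1 of 0. The families are small and their genes were not tested as sets.

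**Figure D3:**
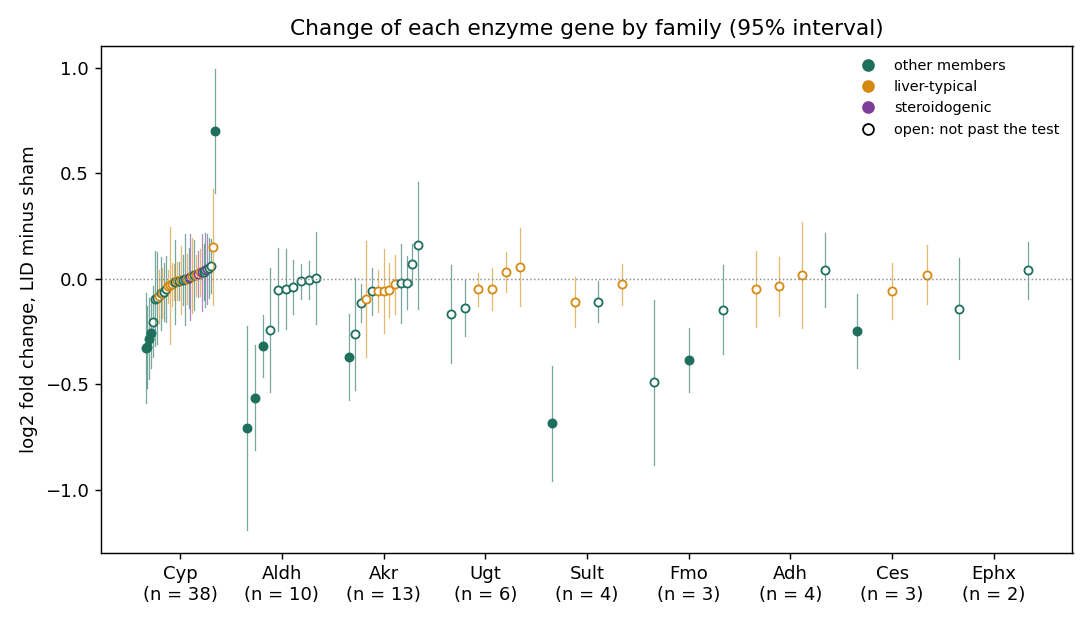
Log2 fold change, LID minus sham, of each of the 83 enzymes (vertical axis, point with 95% confidence interval) by family (horizontal axis), with liver-typical, steroidogenic and other members in different colors, enzymes that passed the test as filled points and the rest as open points. The open point of Cyp2j4 lies behind that of Cyp26b1. The liver-typical members lie between -0.11 and 0.15, and the 11 enzymes that passed are among the other members.

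The members typical of liver were set apart from a list, as a reference, and whether sensory ganglia express them was not checked. Among 29 such enzymes, none passed the test in limma, 0 of 29 did at an unadjusted p under 0.05, and 0 of 29 did by ordinary least squares after adjustment. Of the 50 enzymes outside the liver and steroidogenic lists, 11 passed in limma (22%), near the 19.4% of all probesets. The log2 fold changes of the liver-typical enzymes ran from -0.11 for Sult1b1 to 0.15 for Cyp8b1, a bile acid synthesis enzyme. Of these 29 enzymes, 27 lay within 0.1 of 0. Cyp2e1, the ethanol-inducible P450 of liver, had values of -0.04, -0.00 and 0.07 in the LID arrays and -0.14, 0.01 and 0.09 in the sham arrays, with a log2 fold change of 0.02 (adjusted p = 0.872). The values hold no level, so it could not be seen from them whether these genes were at the background of the array. Their spread was smaller: the median SD over the 6 LID arrays was 0.076 for the liver-typical and 0.112 for the other enzymes, and over the 6 sham arrays it was 0.106 and 0.165. The smallest SD over the sham arrays among liver-typical enzymes was that of Ugt2b35 (0.044) and the largest that of Akr7a3 (0.325), an aldehyde reductase known for aflatoxin, where sham replicate 6 was far above the rest. Neither passed the test (Ugt2b35 -0.05, adjusted p = 0.415, and Akr7a3 -0.09, adjusted p = 0.711). The 4 steroid-making P450s of adrenal and gonad, Cyp11a1, Cyp17a1, Cyp19a1 and Cyp21a1, had log2 fold changes between 0.01 and 0.05, none passed in limma or by ordinary least squares, and 0 of 4 did at an unadjusted p under 0.05.

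Sham replicate 2 stood apart on the whole array, with a median over all 8260 probesets of 0.09 against -0.04 to 0.02 in the other 11 arrays, and further in the liver-typical enzymes. It was the highest sham array for 27 of the 29 liver-typical enzymes (93.1%), for 20 of the 50 others (40%) and for 42.1% of all probesets. The median over the 29 enzymes was 0.19 in that array and -0.06 to 0.07 in the other 11. A like offset was seen in 953 probesets for olfactory, vomeronasal and trace amine receptors (0.22, and -0.08 to 0.07 in the other 11 arrays), which averaged 0.00 in the LID arrays and 0.03 in the sham arrays (exact two-sided permutation test, p = 0.671), and in the mean of 7 hepatocyte marker genes (0.31, the highest of all arrays). None of the 7 hepatocyte markers passed the LID against sham test in limma or by ordinary least squares, and 0 of 7 did at an unadjusted p under 0.05. Without sham replicate 2 the median SD of the liver-typical enzymes over the sham arrays was 0.077. Sham replicate 6 stood apart in other members: it was the highest sham array for 17 of the 50 other enzymes (34%), against 20.5% of all probesets, and among the called enzymes it was the highest for Aldh1a1, Sult1a1, Fmo1, Akr1b10 and Cyp4x1. Each of those calls except that of Aldh1a1 (adjusted p = 0.0835) and Cyp4x1 (0.0507) was kept without it.

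**Figure D4:**
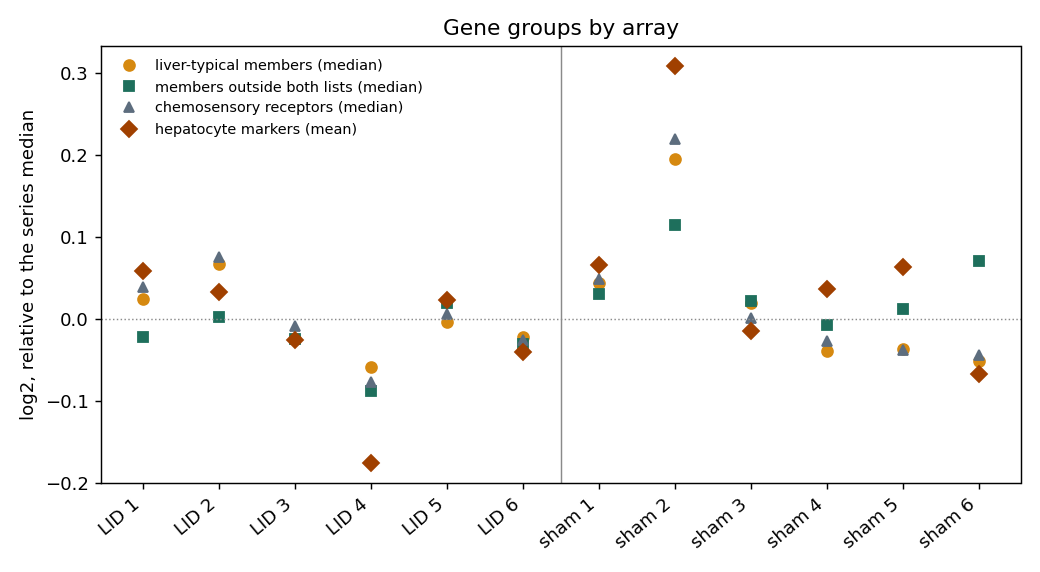
Median value over 29 liver-typical enzymes, 50 other enzymes and 953 chemosensory receptor probesets in each array (log2, as the distance from each probeset's median over the 12 arrays), LID arrays left of sham arrays. Sham replicate 2 lies highest in all 3 groups of probesets, at 0.19, 0.11 and 0.22. A further series of points gives the mean of 7 hepatocyte marker genes, also highest in sham replicate 2, at 0.31.

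The partners and regulators that P450s depend on also went both ways. Of 20 such genes, 17 were measured, and 3 rose and 4 fell, leaving 10 that did not pass, where 7.66% of all probesets rose and 11.7% fell. The median log2 fold change of the 17 was -0.05. Por, the reductase that passes electrons to all microsomal P450s, had values of -0.23, -0.13 and -0.06 in the LID arrays and 0.06, 0.12 and 0.17 in the sham arrays. The groups did not overlap, and each was narrow. It fell by 0.25 in log2 units (SE 0.04, adjusted p = 0.00102). Cyb5r3, the reductase of cytochrome b5, fell by 0.32 (SE 0.05, adjusted p = 0.000801), also without overlap, and Cyb5b, the cytochrome b5 of the outer mitochondrial membrane, fell by 0.31 (SE 0.08, adjusted p = 0.0121). Ppara, the fatty acid receptor known to induce Cyp4a enzymes in rat liver, had the largest fall of the list, with values of -0.29, -0.15 and -0.10 in the LID arrays and 0.10, 0.24 and 0.32 in the sham arrays (log2 fold change -0.39, SE 0.05, adjusted p = 0.000143). Besides Ahr, the general nuclear receptor partner Rxra rose 1.19-fold (1.07 to 1.32, adjusted p = 0.0215) and the transcription factor Cebpa, which is found in liver and in myeloid cells, rose 1.19-fold (1.06 to 1.34, adjusted p = 0.0345). The call of Rxra was lost without LID replicate 2 or 3 or sham replicate 3 or 4 (adjusted p from 0.0504 to 0.0536), and that of Cebpa without LID replicate 1, 2 or 3 or sham replicate 3, 4, 5 or 6 (adjusted p from 0.0522 to 0.0802).

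Several markers of the cells in the ganglion moved with the groups on the same arrays. Over all probesets, 7.66% rose and 11.7% fell. Of 8 macrophage markers measured, 7 rose, and their mean ran from 0.21 to 0.97 in the LID arrays and from -0.83 to -0.15 in the sham arrays. Of 6 markers of T and NK cells, 3 rose, Nkg7, Klrk1 and Prf1 (log2 fold changes 1.16, 1.72 and 0.33). Cd3d, Cd2 and Cd8a did not pass the test (0.06, 0.04 and 0.20). The mean of the 6 ran from 0.12 to 0.50 in the LID arrays and from -0.38 to -0.09 in the sham arrays. Neither the macrophage mean nor this mean overlapped between the groups. Of 5 satellite glia markers, 2 fell, Kcnj10 and Slc1a3 (log2 fold changes -0.42 and -0.48), and none rose. Gja1, Fabp7 and S100b did not pass the test (0.06, -0.26 and -0.09). The mean of the 5 ran from -0.28 to 0.00 in the LID arrays and from -0.02 to 0.16 in the sham arrays. Gfap, a glial gene that the paper reports as upregulated in LID, was not on this list. None of the 10 markers of sensory neurons passed the test in limma or by ordinary least squares (2 at an unadjusted p under 0.05), and their means ran from -0.07 to 0.09 in the LID arrays and from -0.07 to 0.02 in the sham arrays. The 6 Schwann cell probesets had none that passed in limma or by ordinary least squares (0 at an unadjusted p under 0.05) and means from -0.21 to 0.19 in the LID arrays, wider than the -0.03 to 0.06 of the sham arrays. Of 7 markers of fibroblasts, meninges and perineurium, 1 rose (means from -0.20 to 0.33 in the LID arrays and from -0.24 to 0.20 in the sham arrays), as did 2 of 3 markers of endothelium and pericytes (-0.04 to 0.24 in the LID arrays and -0.36 to -0.03 in the sham arrays). The part of these cell types in the changes of the enzymes was not tested. With no level in the values, it could not be checked from them which of these markers the ganglia express.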

How the data were processed

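Gene expression was measured on Affymetrix Rat Exon ST 1.0 arrays, 1 L5 DRG per array, 6 LID and 6 sham. The authors summarized the core probesets at gene level with RMA16 in GeneSpring, quantile normalized them and deposited log2 values, which the files show to be centred on the median of the 12 arrays. The labels give the build rn4. RNA came from 1 of 2 column kits, and which sample had which kit is not given in the sources used here. Scanner signals and background were not used here, so signal over background is unknown and the number of arrays limits the precision.

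Of the 8260 probesets, 7603 carried 1 gene symbol, 409 several and 248 none, and 7584 were matched to RefSeq by gene ID. A further 25 enzyme probesets with several symbols or gene IDs were left out. LID was compared with sham by the two-sided test of lmFit and eBayes (limma 3.58.1, R 4.3.3) with no covariate, and p values of all probesets were adjusted together by the Benjamini-Hochberg method, with a threshold of 0.05. Members and lists of genes were chosen with earlier results of these data known, and a receptor for oxidized LDL was taken out of the chemosensory list by its name. Named were every enzyme that passed, the largest change of each family, 24 preset genes (18 measured; Aldh1l1, Cyp7b1, Cyp46a1, Sult4a1, Ces1d and Adh5 were not) and the liver-typical enzymes with the largest and smallest sham SD, 27 in all. Other enzymes were named as neighbours, subfamily members or extremes after their values were seen. The fit was tested on simulated data. Alternatives were other moderation, normalization, array weights, thresholds, a replicate block, the receptor median as a covariate, arrays left out and, added after the data were seen, probesets with 1 symbol for 2 gene IDs. Promoters came from RefSeq (GRCr8), and motifs were searched with Python 3.11.15, pandas 2.3.3. Figures were drawn with matplotlib 3.10.9. Each rat gave 1 array, so the groups hold biological replicates.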

Additional observations from a re-analysis of the deposited data

Results flagged for a closer look

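In 60 groups of 6 values, the LID and sham values of the named enzymes and of the array medians, the highest or lowest array was checked for a gap to the next array, relative to the group's range, past Dixon's 95% critical value. Chance alone gives about 1 in 20, and 8 groups had such an array. Among the enzymes that passed the test, Cyp1b1 had LID replicate 6 at -0.129, with the other LID arrays from 0.492 to 0.818, and Akr1b10 had LID replicate 5 at 0.0889, with the others from -0.236 to -0.131. Among enzymes that did not pass, the mitochondrial dehydrogenase Aldh2 had LID replicate 6 at -0.0979 (others -0.00268 to 0.0191), and Aldh1a3 had sham replicate 1 at 0.423 (others -0.0466 to 0.0511). Akr7a3 had sham replicate 6 at 0.728 (others -0.198 to 0.0595). Sham replicate 2 was the high array for Cyp4f1 (0.350, others -0.0996 to 0.0614), for Ugt2b35 (0.114, others -0.0135 to 0.0318) and for the median of the chemosensory receptor probesets (0.219, others -0.0436 to 0.0491).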

How the results depend on the processing

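Cyp1b1 and Sult1a1 passed under every alternative tried, and Fmo1, Aldh1a2 and Aldh9a1 under all but the threshold of 1.5-fold. Akr1b10 was also lost at an adjusted p under 0.01. Cyp1b1 was the only enzyme that rose, and no liver-typical enzyme passed, in any alternative. With a fold above 1.5 as well, 247 probesets passed, 2 enzymes fell and 3 of the 50 other enzymes passed; at an adjusted p under 0.01 these were 832, 4 and 5. Past 1.5-fold the balance over all probesets turned, with 177 higher and 70 lower against 633 and 968 without that threshold, and after array medians were subtracted it was 701 and 795. With single arrays left out, 1261 to 1646 probesets passed, 6 to 10 enzymes fell (6 without LID replicate 3 or sham replicate 4, 5 or 6) and 7 to 11 other enzymes passed. Over all alternatives the 11 calls were kept in 190 cases and lost in 63, with no change of sign. These cases include the stricter thresholds, which were applied to the main fit without a refit. The calls lost most often were those of Ces5a, Cyp2a3, Aldh1a1 and Cyp4x1. With a replicate block, 1680 probesets passed and 9 enzymes fell, with Aldh1a1 (adjusted p = 0.0804), Ces5a (0.106) and the partner gene Rxra (0.0599) lost. Same-numbered arrays correlated from -0.151 to 0.399 in their deviations from the group means, and of the LID arrays only replicate 4 was closest to its own number, so the numbers were not taken as pairs. By ordinary least squares Aldh1a1 (0.0848), Cyp2a3 (0.0646), Ces5a (0.0754) and, of the listed genes, Dhrs9 (0.088) and Cebpa (0.0554) were lost. With trend and robust moderation Cyp2a3 (0.0563) and Dhrs9 (0.0517) were lost, and with array weights Dhrs9 (0.0563). Without sham replicate 2 and LID replicate 2 together, Cyp2a3 (0.101), Ces5a (0.125), Dhrs9 (0.161) and Rxra (0.0536) were lost. After array medians were subtracted Aldh1a1 (0.0501), Cyp4x1 (0.0766) and Ces5a (0.0822) were lost, and after quantile normalization Cyp2a3 (0.0651) and Ces5a (0.098). Cyp2j4 passed with array weights (0.0183) and with the receptor median as a covariate (0.0123). The causes of these differences were not tested. The values hold no level, so from them alone a gene near the background of the array cannot be told from one that did not change. The authors' list of observed genes was not used to check this.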

Other observations

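Genes of vitamin D and oxysterol metabolism were also listed, and 9 of 16 were measured. Abca1, the exporter of cellular cholesterol, was the only one that rose (1.22-fold, 1.11 to 1.34, adjusted p = 0.00602). None of the 9 fell, and over all probesets 7.66% rose and 11.7% fell. The vitamin D receptor Vdr had a log2 fold change of 0.20 (adjusted p = 0.08), and the enzymes Cyp24a1, which inactivates vitamin D, and Akr1d1, a bile acid and steroid reductase, were at 0.04 and -0.06. Of the 16 genes for cofactors and other conjugation, Nqo2, a quinone reductase, had a log2 fold change of -0.37 (adjusted p = 0.0962) and Hnmt, which inactivates histamine, one of -0.24 (adjusted p = 0.138), and neither passed the test.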
